A study of Homo sapiens with 42 samples.

Results

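The 8 genes described here were grouped as the insulin-like growth factor (IGF) and insulin signaling axis: IGF2 (ENSG00000167244), IGFBP1 (ENSG00000146678), GPC3 (ENSG00000147257), IGF1R (ENSG00000140443), INSR (ENSG00000171105), IGF2R (ENSG00000197081), IRS1 (ENSG00000169047) and IRS2 (ENSG00000185950). They were chosen by gene identifier, and their m6A peaks were every row of the 7 deposited peak tables whose identifier, without its version suffix, was one of these. That gave 200 of 211410 peaks over the 7 lists. Of the 8 genes, 7 had a peak in every list, and IRS2 had a peak in none.

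IGF2 is a secreted growth factor of fetal tissue that liver tumours often make again, and it signals through the receptor tyrosine kinases IGF1R and INSR. Both receptors phosphorylate the adaptors IRS1 and IRS2, which pass the signal to lipid kinases and on to growth and glucose metabolism. IGF2R takes up IGF2 and delivers it for degradation, IGFBP1 is a hepatocyte protein that binds IGFs in the circulation and whose gene insulin represses, and GPC3 is a cell surface proteoglycan used as a marker of hepatocellular carcinoma. The m6A mark, a methyl group on adenosines within mRNA, is written by a nuclear complex of METTL3, which carries the catalytic site, METTL14, which helps it hold the RNA, and WTAP, which recruits the pair.

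All cells were HepG2, a hepatocellular carcinoma line, transduced with lentiviral short hairpin RNAs (shRNAs) and kept under puromycin. The knockdown conditions were shMETTL3, shMETTL14, shWTAP and shSETD2#1, which share the control shCtrl, and shSETD2#2, which has a control of its own, shCtrl (for shSETD2#2), called the second control below. SETD2 is a histone methyltransferase that acts along transcribed genes. Each of the 7 conditions had 6 libraries, an input and an anti-m6A immunoprecipitate (IP) for replicates 1 to 3, which makes 42 samples. The labels do not say whether replicates came from separate cultures, or whether a line was 1 clone. Knockdown of the targeted genes and markers of the line were not analysed here, because the tables hold peaks and no transcript levels.

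The authors called peaks on the 3 replicates together, so each condition has 1 list and no value carries a replicate error. No test between conditions was possible, and all differences below are descriptions of these lists. A peak is a stretch of 1 or more exonic blocks with more IP than input signal. Fold enrichment (IP over input) and log10 p are the authors' values for that peak within its own list, and they are set side by side across lists without a test. Lists held between 28645 and 33672 peaks, with a median fold enrichment between 3.81 in the SETD2 #2 list and 7.02 in the METTL3 list. Read depth is unknown. Positions are hg19, and the peaks of a gene are numbered from its 5′ end within each list.

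IGF1R had the most peaks of the 8 genes in every list except METTL3, where IGF2 had as many, and IGFBP1 had the fewest among the 7 with any. IGF1R had 6 peaks in the METTL3 list, 7 in METTL14, 9 in WTAP, 7 in SETD2 #1 and 9 in the control, and 9 in SETD2 #2 against 8 in the second control. IGF2 had 6, 5, 6 and 5 peaks in the METTL3, METTL14, WTAP and SETD2 #1 lists and 5 in the control, and 5 in SETD2 #2 against 6 in the second control. IRS1 ranged from 4 to 6 peaks, INSR from 3 to 5, IGF2R and GPC3 from 2 to 4, and IGFBP1 from 1 to 2. In all, the genes had 27, 24, 28 and 27 peaks in the METTL3, METTL14, WTAP and SETD2 #1 lists and 30 in the control, and 34 in SETD2 #2 against 30 in the second control.

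Peaks of these genes had low p-values within their lists. Their median log10 p was −75.3 in the METTL3 list, −72.2 in METTL14, −67.7 in WTAP, −77.8 in SETD2 #1 and −78.1 in the control, and −27.8 in SETD2 #2 against −37.3 in the second control. Over all peaks the list medians lay between −12.9 and −8.86. In the control, 21 of the 30 peaks had a p-value below the median of their list, and in the SETD2 #2 list 26 of 34 did. Their fold enrichments did not stand out in the same way. The median over their peaks was 4.46 in METTL3, 5.05 in METTL14, 3.73 in WTAP, 3.99 in SETD2 #1 and 7.64 in the control, beside list medians of 7.02, 6.71, 6.99, 5.32 and 6.79. It was 2.91 in SETD2 #2 and 4.05 in the second control, beside 3.81 and 4.33.

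**Figure D1:**
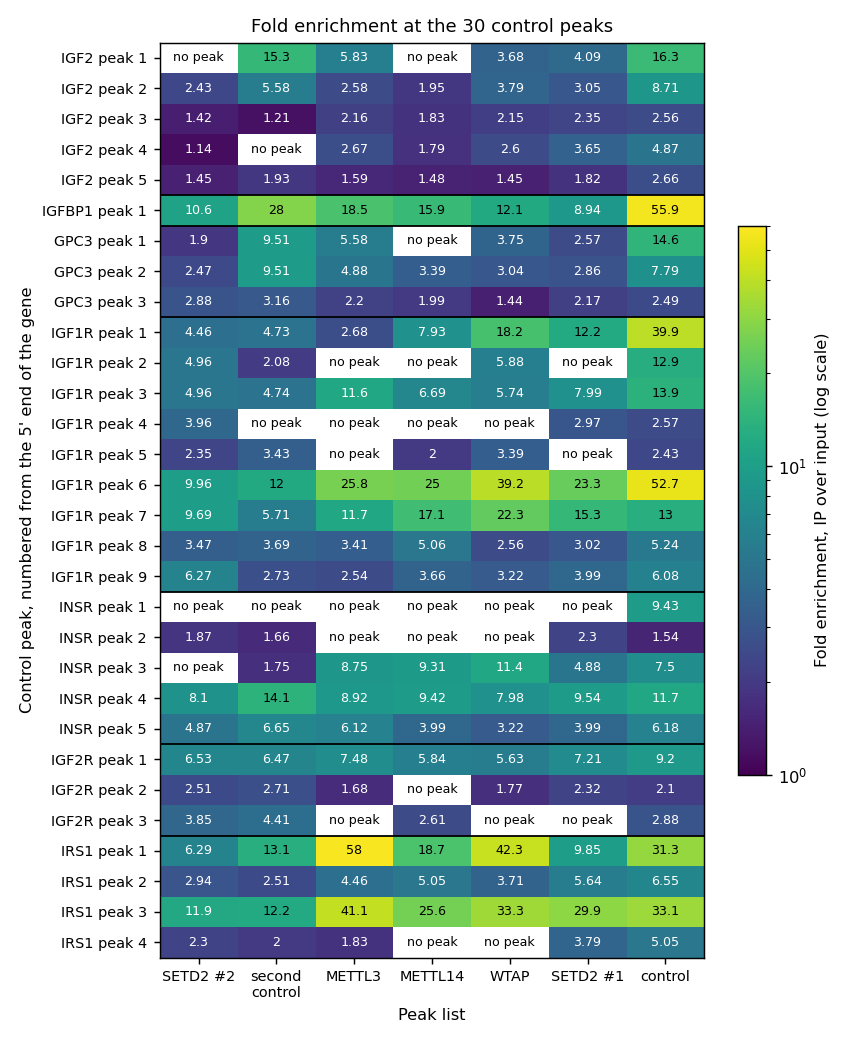
Fold enrichment (colour, log scale, and printed value) of the 30 control peaks of the IGF and insulin genes (rows) and of the peak sharing the most bases with each in the other lists (columns). White cells have no overlapping peak. IGF1R peak 6 and IGFBP1 peak 1 are the 2 highest control values, 52.7 and 55.9, and INSR peak 1 has no counterpart in any other list.

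Most control peaks of these genes were still called after knockdown. A control peak counted as absent from a list that had, on the same strand, no peak sharing at least 1 base with its blocks. By this count 6 of 30 were absent from the METTL3 list, which is 20%, beside 22.8% of all control peaks. The METTL14 list lacked 8 of 30, or 26.7%, beside 29.8% of all control peaks. The WTAP list lacked 5 of 30, or 16.7%, beside 28.8%, and the SETD2 #1 list lacked 4 of 30, or 13.3%, beside 27%. All 4 shares were below those of all peaks, by least in METTL3 and METTL14, and none of these differences was tested. With the authors' shorter lists in place of the full ones, METTL3 lacked 7 of 25 control peaks, or 28%, beside 20.4% of all, and METTL14 lacked 11 of 25, or 44%, beside 29.3%, so these 2 shares then lay above those of all peaks. Both also lay above with a fold of at least 3, at 31.8% beside 24.3% in METTL3 and 31.8% beside 30.6% in METTL14. With a false discovery rate (FDR) of at most 1e-05, METTL3 was at 20.8% beside 20.4%, and METTL14 below at 20.8% beside 29.8%. These 4 comparisons share the control list.

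The 23 absences came from 10 distinct control peaks, between 61 and 511 bases wide, of which 8 had a p-value above the control median. The other 20 control peaks were present in all 4 of these knockdown lists. The matching share over all control peaks was not computed, so this count has nothing to be read beside. Of the 21 whose p-value was at the control median or better, the METTL3, METTL14, WTAP and SETD2 #1 lists lacked 0, 2, 1 and 0, and among all such control peaks they lacked 2.42%, 7.9%, 7.41% and 3.24%. Among the 9 with a p-value above the median they lacked 6, 6, 4 and 4, beside 43.3%, 51.9%, 50.3% and 50.9% over all such control peaks. So the absent peaks were mostly the ones with the weakest p-values, as they were over the whole list.

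Peaks without a control counterpart were few. The METTL3 list had 2 among its 27 peaks of these genes, or 7.41%, beside 10.6% of all its peaks. The METTL14 list had 0 of 24, beside 12.7%. The WTAP list had 1 of 28, or 3.57%, beside 13.5%, and the SETD2 #1 list 0 of 27, beside 8.07%.

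In the second set, the SETD2 #2 list lacked 3 of the 30 second control peaks, or 10%, beside 20.5% of all second control peaks. It held 5 peaks of 34 without a counterpart in the second control, or 14.7%, beside 14.5% of all its peaks. With the authors' shorter lists this was 4 of 24, or 16.7%, beside 11.7%. With an FDR of at most 1e-05 it was 5 of 30, or 16.7%, beside 9.86%. With a fold of at least 3 it was 3 of 16, or 18.8%, beside 19.1%. Among the 26 SETD2 #2 peaks of these genes with a p-value at or below the median of that list, 3 had no second control counterpart, beside 1.71% of all such SETD2 #2 peaks, and among the 8 above the median 2 had none, beside 27.3%. The 3 absent second control peaks were among the 8 with a p-value above the median, beside 38.4% absent of all such peaks, and 0 were among the 22 at or below it, beside 2.66%.

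The 2 controls also differed from each other in these genes, by this count in a smaller share of peaks than over all peaks. The second control lacked 3 of the 30 control peaks, or 10%, beside 28.6% of all control peaks. It had 1 of 30 peaks that the control lacked, or 3.33%, beside 15.6%. Of the 30 second control peaks, 20 (66.7%) overlapped a peak in all other 6 lists, beside 53.7% of all second control peaks. For the control this was 18 of 30 (60%), beside 45.7% of all control peaks.

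The counts depended on how overlap was defined and on which peaks were kept. When both peaks had to share 50% of their bases, METTL3 lacked 10 of 30 control peaks (33.3%, beside 35.1% of all), WTAP 8 (26.7%, beside 43.8%), SETD2 #1 8 (26.7%, beside 38.9%) and the second control 11 (36.7%, beside 45.2%), and SETD2 #2 lacked 6 of 30 second control peaks (20%, beside 31.9%). Among peaks with a fold of at least 3, METTL3 lacked 7 of 22 control peaks (31.8%, beside 24.3%), SETD2 #2 lacked 5 of 18 second control peaks (27.8%, beside 29.1%) and the second control lacked 7 of 22 control peaks (31.8%, beside 36.8%).

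**Figure D2:**
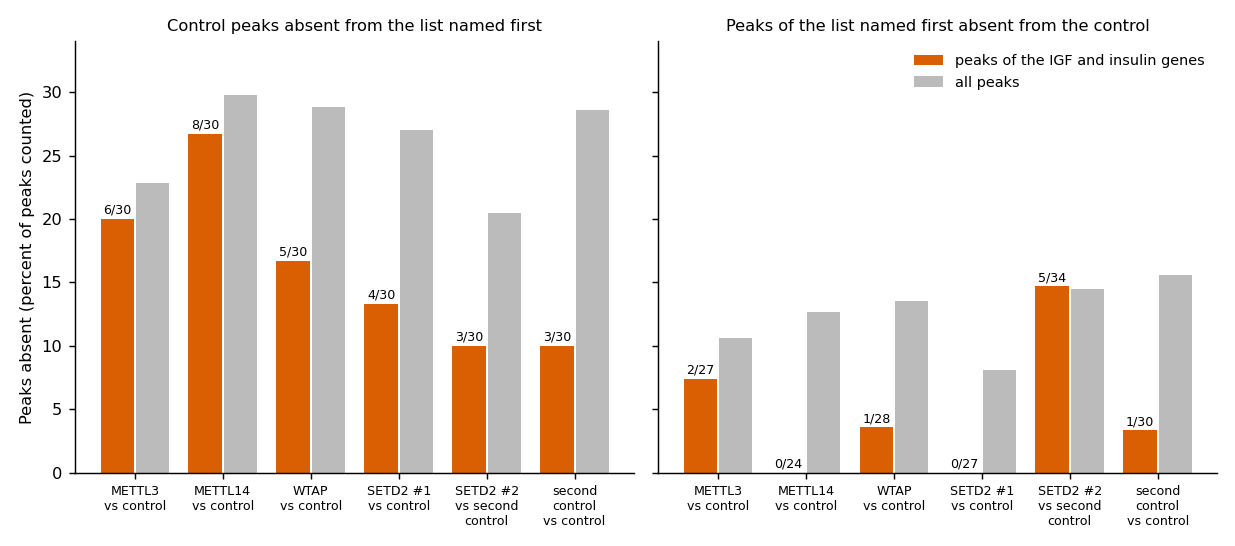
Percent of control peaks with no overlapping peak in the list named first (left) and percent of that list's peaks with no overlapping control peak (right), for the IGF and insulin genes (orange, with counts) and for all peaks (grey). The control is shCtrl for METTL3, METTL14, WTAP, SETD2 #1 and the second control, and the second control for SETD2 #2. The orange bar is below the grey one in all comparisons except SETD2 #2 peaks absent from the second control, 14.7% beside 14.5%.

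Where a knockdown peak and a control peak overlapped each other and nothing else of those lists, the knockdown peak mostly had the lower listed fold enrichment. This was so for 19 of 22 pairs (86.4%) in METTL3, beside 55% of all such pairs in that comparison. It was so for 17 of 19 (89.5%) in METTL14, beside 59.8%, for 18 of 22 (81.8%) in WTAP, beside 62.6%, and for 20 of 24 (83.3%) in SETD2 #1, beside 70.4%. In SETD2 #2, 15 of 21 pairs (71.4%) were lower than the second control, beside 58.7%. The second control was lower than the control in 13 of 20 pairs (65%), beside 71.3%. A lower listed value in a knockdown was thus the common case over all peaks too, and the control these 4 comparisons share was the list with the highest member median.

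The paired peaks were also narrower in the first 4 knockdowns. The knockdown peak covered fewer bases in 19 of 22 pairs (86.4%) in METTL3, beside 56.7% of all pairs, in 17 of 19 (89.5%) in METTL14, beside 62.4%, in 19 of 22 (86.4%) in WTAP, beside 62.2%, and in 18 of 24 (75%) in SETD2 #1, beside 64.9%. Median widths of the pairs were 346 bases in METTL3 and 496 in the control, 329 in METTL14 and 481 in the control, 256 in WTAP and 435.5 in the control, and 329.5 in SETD2 #1 and 480.5 in the control. Over all pairs these medians were 270 and 300, 241 and 326, 263 and 313, and 261 and 301 bases, in the same order. SETD2 #2 went the other way, with 4 of 21 peaks (19%) narrower than in the second control, beside 44.1%, and 14 wider. Over all 20746 pairs of that comparison, 9147 were narrower and 6920 wider. The second control was narrower than the control in 14 of 20 pairs (70%), beside 60.7%.

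Of the 14691 bases within control peaks of these genes, 72.3% lay within METTL3 peaks, 65.4% within METTL14 peaks, 73.2% within WTAP peaks, 76.8% within SETD2 #1 peaks and 70.5% within second control peaks. Over all control peaks these shares were 76.9%, 68.5%, 69.7%, 71.7% and 64.5%. SETD2 #2 peaks covered 88.9% of the second control bases of these genes, beside 78.2% over all second control peaks.

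IGF2, the ligand, had 5 control peaks on the minus strand within chr11:2151839-2162288, the stretch that its peaks in all lists span. Its control peak with the lowest p-value was peak 4, 689 bases at chr11:2152678-2153366. There it was 2.67-fold in METTL3, 1.79-fold in METTL14, 2.60-fold in WTAP and 3.65-fold in SETD2 #1, against 4.87-fold in the control. All 4 knockdown values lay below the control value, with METTL14 lowest and SETD2 #1 closest to it. The log10 p was −919, −273, −1160 and −4890 in these knockdowns and −3100 in the control, so the SETD2 #1 peak had the lower fold and the lower p. Peak 4 kept its full 689 bases in SETD2 #1 and was 600, 390 and 570 bases in METTL3, METTL14 and WTAP.

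In the second set, the same stretch of IGF2 had a 121 base peak in SETD2 #2, 1.14-fold with log10 p −12.3, and no peak in the second control. Of the 284 control peaks with a p-value as low as that of IGF2 peak 4, 2 had no overlapping peak in the second control, and this was 1 of them. The second control's own lowest p-value in IGF2 was at its peak 3, chr11:2159819-2160328, which was 2.43-fold in SETD2 #2 and 5.58-fold in the second control.

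IGF2 control peak 2 was wide, 1288 bases in 3 blocks over chr11:2156699-2160567, with a fold enrichment of 8.71. In the knockdowns sharing this control it was represented by smaller peaks, at 2.36-fold and 2.58-fold in METTL3, 1.67-fold and 1.95-fold in METTL14, 2.53-fold and 3.79-fold in WTAP, and a single 3.05-fold peak of 720 bases in SETD2 #1. None of these reached the 8.71-fold listed for the control. In the second set it matched peaks of 2.43-fold and 1.27-fold in SETD2 #2, against 2.85-fold, 5.58-fold and 1.61-fold in the second control. The block of control peak 2 farthest to the 3′ side lay in no peak of any other list, as the map of IGF2 peaks shows.

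The 5′-most IGF2 control peak, peak 1 at chr11:2161522-2162288, was 16.3-fold with log10 p −4.12. It was 5.83-fold in METTL3, 3.68-fold in WTAP and 4.09-fold in SETD2 #1, with log10 p −2.93, −3.22 and −2.99, and METTL14 had no peak there. In the second set, SETD2 #2 had no peak where the second control had a 15.3-fold peak (chr11:2162169-2162288), nor at second control peak 2 (chr11:2160477-2160567, 2.85-fold). Peak 1 thus had a high fold and a weak p-value in both controls. Peaks 3 and 5 were present in all 7 lists, between 1.21-fold and 2.56-fold at peak 3 and between 1.45-fold and 2.66-fold at peak 5.

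All 5 METTL14 peaks of IGF2 lay between 1.48-fold and 1.95-fold, and the authors' shorter list, limited to p-values up to 1e-05 and folds from 2 upward, therefore held 0 of them. It held 4 of 6 IGF2 peaks in the METTL3 list, 4 of 6 in WTAP, 3 of 5 in SETD2 #1 and 4 of 5 in the control, and 1 of 5 in SETD2 #2 against 2 of 6 in the second control. Of all peaks, the shorter lists held 71.1% in METTL3, 69.3% in METTL14, 70.3% in WTAP, 68.1% in SETD2 #1 and 69.3% in the control. In the second set they held 62.2% of all SETD2 #2 peaks and 66.2% of all second control peaks. IGF2 bases within control peaks that also lay within knockdown peaks came to 40.1% for METTL14 and 59.8% for METTL3, and they came to 73% for WTAP, 72.6% for SETD2 #1 and 41.2% for the second control. Among the lists just given, which leave out SETD2 #2, METTL14 and the second control thus covered the least of the control's IGF2 peaks. In each list the peak matched to control peak 3 shared bases with a peak filed under another identifier on the same strand, ENSG00000129965, so its signal cannot be told apart from that gene's. In the control a second IGF2 peak, peak 2, shared bases with a peak of that identifier too. In WTAP and in both controls 1 IGF2 peak also shared bases with a peak of ENSG00000099869 on the opposite strand. The libraries were stranded, per the labels, but whether strand was used in calling is not given in the sources used here.

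**Figure D3:**
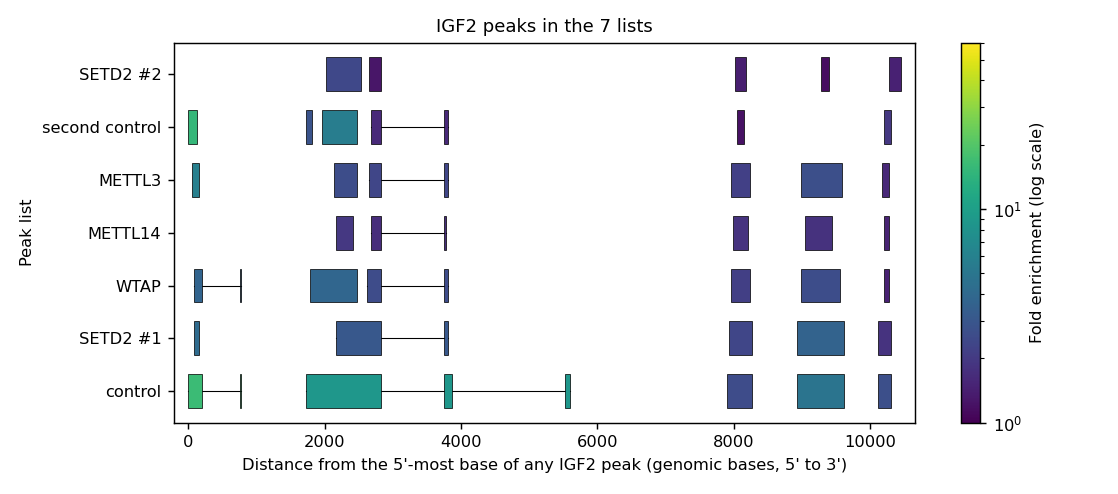
Blocks of the IGF2 peaks (boxes, joined by a line within a peak) in the 7 lists (rows), by distance in genomic bases from the 5′-most base of any IGF2 peak, coloured by fold enrichment on a log scale. The 689 base control peak 4, the second from the 3′ end, is present in METTL3, METTL14, WTAP and SETD2 #1, is 121 bases in SETD2 #2 and is missing in the second control.

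IGFBP1, the secreted binding protein, had a single peak in 6 lists, and its fold enrichment in both controls lay above that in every knockdown. The control peak covered 650 bases in 2 blocks at chr7:45928015-45930210 on the plus strand. It was 18.5-fold in METTL3, 15.9-fold in METTL14, 12.1-fold in WTAP and 8.94-fold in SETD2 #1, against 55.9-fold in the control, and 10.6-fold in SETD2 #2 against 28-fold in the second control. The log10 p was −2920, −10000, −9530 and −3960 in METTL3, METTL14, WTAP and SETD2 #1 and −17800 in the control, and −854 in SETD2 #2 and −948 in the second control.

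The IGFBP1 peak began at the same 5′ base in all 7 lists and differed at its 3′ side. It was 532 bases wide in METTL3, 561 in METTL14, WTAP and SETD2 #1 and 650 in the control, and 385 in SETD2 #2 against 650 in the second control. The second block, which brings the peak to 45930210, was listed in both controls and in no knockdown. SETD2 #2 alone had a further small peak of 89 bases, 1.76-fold, at chr7:45928487-45928575, which lies within the control peak. The IGFBP1 control peak ranked above 97% of control peaks in fold enrichment. Its match ranked above 82.5% of the METTL3 list, 79.5% of METTL14, 68.5% of WTAP and 69% of SETD2 #1. In the second set it ranked above 91% of SETD2 #2 peaks, against 97.6% of second control peaks.

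GPC3, the proteoglycan, had 2 peaks at its 5′ side and 1 far downstream in the control, all on the minus strand of the X chromosome. Peak 2 (chrX:133087234-133119684, 388 bases in 2 blocks) had the lowest p-value, with log10 p −1530. It was 4.88-fold in METTL3, 3.39-fold in METTL14, 3.04-fold in WTAP and 2.86-fold in SETD2 #1, against 7.79-fold in the control. In the second set it was 2.47-fold in SETD2 #2 against 9.51-fold in the second control, where a single peak of 597 bases with log10 p −3210 covered both 5′ peaks. As at IGFBP1, the 5 knockdown values all lay below those of both controls.

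GPC3 peak 1 (chrX:133119743-133119922), 14.6-fold with log10 p −6.69 in the control, was 5.58-fold in METTL3, 3.75-fold in WTAP and 2.57-fold in SETD2 #1, and METTL14 had no peak there. The log10 p of these 3 knockdown peaks was −2.34, −2.84 and −2.56. Peak 3 (chrX:132887527-132888063) was 2.2-fold in METTL3, 1.99-fold in METTL14, 1.44-fold in WTAP and 2.17-fold in SETD2 #1, against 2.49-fold in the control, and 2.88-fold in SETD2 #2 against 3.16-fold in the second control. A further downstream peak at chrX:132670279-132730530 was listed only in the second set, at 1.53-fold with log10 p −106 in SETD2 #2 and 1.58-fold with log10 p −184 in the second control. It was the single second control peak of these genes with no control counterpart.

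**Figure D4:**
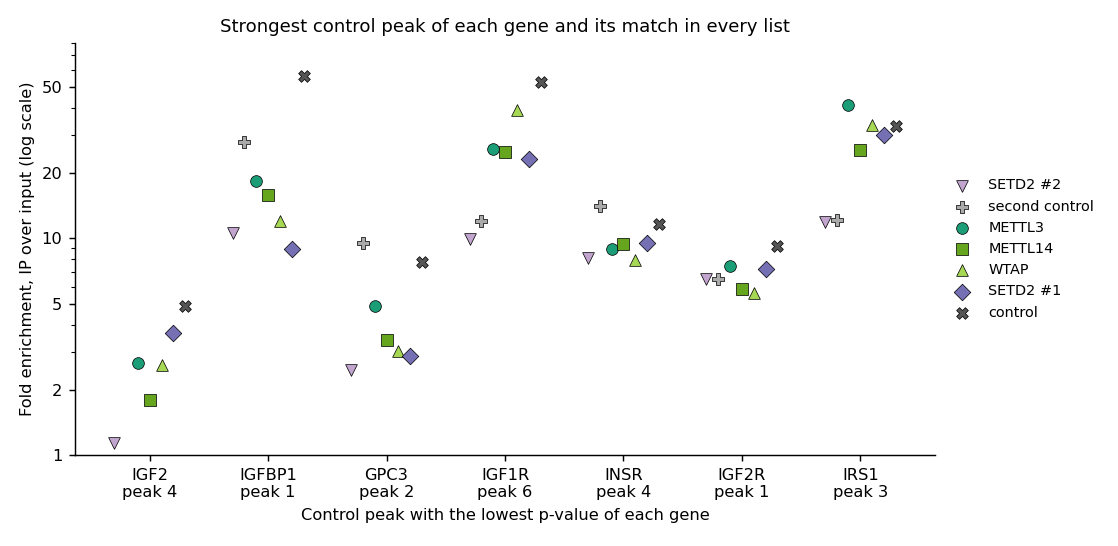
Fold enrichment (log scale) of each gene's control peak with the lowest p-value and of the peak sharing the most bases with it in the other lists, 1 point per list. Folds are drawn as listed, not scaled to their list. The controls lie above all knockdowns of their set at IGFBP1, GPC3, INSR and IGF1R, the IGF2R control lies above its 4 knockdowns, and at IRS1 the METTL3 and WTAP points (41.1 and 33.3) lie above the control (33.1). Ranked within lists, SETD2 #1 stands above the control at INSR (71.5% beside 68.7%) and IGF2R (62.1% beside 59.7%). SETD2 #2 then stands above the second control at IGF1R (89.5% beside 85.6%) and IRS1 (93.4% beside 85.8%). At IRS1, SETD2 #1 (96.5%) then stands above the control (92.6%) and WTAP (92%) below it. At IGFBP1 and GPC3 the controls stay above by rank. IGF2 has no point for the second control.

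IGF1R, the IGF receptor kinase, spread its control peaks along chr15:99192200-99506112 on the plus strand, and 6 of the 9 were present in all lists. Its control peak with the lowest p-value, peak 6 at chr15:99500331-99500810, was 25.8-fold in METTL3, 25-fold in METTL14, 39.2-fold in WTAP and 23.3-fold in SETD2 #1, against 52.7-fold in the control. It was 9.96-fold in SETD2 #2 against 12-fold in the second control. The listed folds were below their own control in both sets, and both lists of the second set were below every list of the first. Ranks within each list did not keep this order. The peak ranked above 89.2% of METTL3 peaks, 90.2% of METTL14, 93.6% of WTAP and 93.8% of SETD2 #1, against 96.6% of control peaks. In the second set it ranked above 89.5% of SETD2 #2 peaks and 85.6% of second control peaks. The control's log10 p was listed as minus infinity, as it was for 182 control peaks, and was −503, −548, −900 and −420 in METTL3, METTL14, WTAP and SETD2 #1.

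The neighbouring IGF1R peak 7 (chr15:99501230-99501799) showed another order. It was 11.7-fold in METTL3, 17.1-fold in METTL14, 22.3-fold in WTAP and 15.3-fold in SETD2 #1, against 13-fold in the control, and 9.69-fold in SETD2 #2 against 5.71-fold in the second control. All knockdown lists except METTL3 thus had the higher value there, and the peak kept its 570 bases in the 4 knockdowns sharing the control. Peak 1, at the 5′ end (chr15:99192200-99192410), was 2.68-fold in METTL3, 7.93-fold in METTL14, 18.2-fold in WTAP and 12.2-fold in SETD2 #1, against 39.9-fold in the control, and 4.46-fold in SETD2 #2 against 4.73-fold in the second control. Its p-values were weak outside the control, with log10 p −2.13, −3.92, −5.79 and −5.76 in these knockdowns and −22 in the control. In the second set the log10 p was −5.04 in SETD2 #2 and −4.61 in the second control.

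Peak 3 (chr15:99250865-99364120) was 11.6-fold in METTL3, 6.69-fold in METTL14, 5.74-fold in WTAP and 7.99-fold in SETD2 #1, against 13.9-fold in the control, and 4.96-fold in SETD2 #2 against 4.74-fold in the second control. The last 2 values are for unlike stretches. The SETD2 #2 peak had 720 bases in 4 blocks and also overlapped control peak 2. The second control peak had 241 bases, and another second control peak overlapping peak 3 was 2.08-fold. The 2 peaks nearest the 3′ end, 8 and 9, were present in all lists, between 2.54-fold and 6.27-fold.

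The IGF1R peaks that were absent lay between these ends. Control peak 2 (chr15:99192739-99250805, 12.9-fold, log10 p −3.88) was absent from METTL3, METTL14 and SETD2 #1. Peak 4 (chr15:99433962-99434651, 2.57-fold, log10 p −3.52) was absent from METTL3, METTL14 and WTAP and from the second control. Peak 5 (chr15:99459911-99460090, 2.43-fold, log10 p −5.69) was absent from METTL3 and SETD2 #1. All 3 had p-values above the control median.

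Knockdown lists also held IGF1R peaks without a control counterpart. WTAP had 1 at chr15:99502667-99502817, 3.67-fold with log10 p −8.11. SETD2 #2 had 2 that the second control lacked, at chr15:99433932-99434711 (3.96-fold, log10 p −10.7) and at chr15:99452051-99454556 (1.55-fold, log10 p −3.91). The first of the SETD2 #2 peaks overlapped control peak 4 of the other set.

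INSR, the insulin receptor, had 5 control peaks on the minus strand within chr19:7115170-7294015. The lowest p-value was at peak 4 (chr19:7116937-7119514, 540 bases in 2 blocks), which was 8.92-fold in METTL3, 9.42-fold in METTL14, 7.98-fold in WTAP and 9.54-fold in SETD2 #1, against 11.7-fold in the control, and 8.1-fold in SETD2 #2 against 14.1-fold in the second control. The knockdown folds lay close together and below both controls. By rank within its list, the SETD2 #1 peak stood above 71.5% of peaks, against 68.7% in the control. The METTL3, METTL14 and WTAP peaks stood above 57.7%, 60.9% and 53.6%, and SETD2 #2 above 84.5% against 89.5% in the second control. The 4 knockdowns sharing the control listed the same 420 bases for it, chr19:7116997-7117416.

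INSR peak 5, at the 3′ end (chr19:7115200-7115590), was 6.12-fold in METTL3, 3.99-fold in METTL14, 3.22-fold in WTAP and 3.99-fold in SETD2 #1, against 6.18-fold in the control, and 4.87-fold in SETD2 #2 against 6.65-fold in the second control. Peak 3 (chr19:7122924-7123164) went the other way in 3 lists, at 8.75-fold in METTL3, 9.31-fold in METTL14 and 11.4-fold in WTAP, with 4.88-fold in SETD2 #1, against 7.5-fold in the control. SETD2 #2 had no peak there, where the second control listed 1.75-fold with log10 p −3.96 (chr19:7122759-7123044).

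The 2 INSR control peaks toward the 5′ end were weak. Peak 1 (chr19:7293955-7294015), 61 bases wide and 9.43-fold with log10 p −2.17, was absent from all 6 other lists. Peak 2 (chr19:7267551-7267641), 1.54-fold with log10 p −3.35, was absent from METTL3, METTL14 and WTAP and was 2.3-fold in SETD2 #1. METTL3 had INSR peaks without a control counterpart at chr19:7125378-7125437 (1.92-fold) and chr19:7116039-7116188 (1.91-fold). SETD2 #2 had 1 at chr19:7115949-7116099, 4.24-fold, that the second control lacked.

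IGF2R, the receptor that clears IGF2, had 1 strong peak and 2 weaker ones downstream of it. Control peak 1 (chr6:160524807-160526384, plus strand) was 7.48-fold in METTL3, 5.84-fold in METTL14, 5.63-fold in WTAP and 7.21-fold in SETD2 #1, against 9.2-fold in the control, and 6.53-fold in SETD2 #2 against 6.47-fold in the second control. It was listed at the same 660 bases in the 4 knockdowns sharing the control and at 720 bases in the control. Knockdown folds were below the control in the first set and not in the second. By rank within its list, the SETD2 #1 peak stood above 62.1% of peaks, against 59.7% in the control. METTL3, METTL14 and WTAP stood above 51.9%, 44.8% and 43.1%, and SETD2 #2 above 77.6% against 67.4% in the second control.

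IGF2R peak 2 (chr6:160527222-160527312, 2.1-fold, log10 p −16.9) was absent from METTL14 and was 1.68-fold in METTL3, 1.77-fold in WTAP and 2.32-fold in SETD2 #1. Peak 3 (chr6:160531833-160532012, 2.88-fold, log10 p −6.35) was absent from METTL3, WTAP and SETD2 #1 and was 2.61-fold in METTL14. Both were present in the second set, where peak 3 was 3.85-fold in SETD2 #2 and 4.41-fold in the second control. SETD2 #2 also listed a peak toward the 5′ side, at chr6:160493062-160494297, 1.36-fold with log10 p −9.3, that the second control lacked.

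IRS1, the adaptor downstream of both receptor kinases, had the widest peaks of the 8 genes. Control peak 3 (chr2:227659709-227660938, minus strand, 1230 bases) had the lowest p-value. It was 41.1-fold in METTL3, 25.6-fold in METTL14, 33.3-fold in WTAP and 29.9-fold in SETD2 #1, against 33.1-fold in the control, and 11.9-fold in SETD2 #2 against 12.2-fold in the second control. The knockdown folds lay on both sides of the control, and both lists of the second set were lower than all of the first. Ranks within each list were ordered otherwise. The peak ranked above 94.6% of METTL3 peaks, 90.6% of METTL14, 92% of WTAP and 96.5% of SETD2 #1, against 92.6% of control peaks. In the second set it ranked above 93.4% of SETD2 #2 peaks and 85.8% of second control peaks. The log10 p was −890, −479, −663 and −805 in METTL3, METTL14, WTAP and SETD2 #1 and −894 in the control, and −240 in SETD2 #2 and −241 in the second control.

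IRS1 control peak 1 (chr2:227662257-227664445) was 1 unbroken peak of 2189 bases, 31.3-fold. METTL3 had it as 1 peak of 2219 bases, 58-fold. The other lists divided it, into peaks of 18.7-fold and 5.46-fold in METTL14, 42.3-fold and 10-fold in WTAP, and 24.7-fold and 9.85-fold in SETD2 #1, each from 5′ to 3′. In the second set it was 2.75-fold, 7.35-fold and 6.29-fold in SETD2 #2, and 13.1-fold and 7.92-fold in the second control. In METTL14, WTAP, SETD2 #1 and the second control the 5′ piece had the higher fold enrichment.

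IRS1 peak 2 (chr2:227661118-227661957) was present everywhere, at 4.46-fold in METTL3, 5.05-fold in METTL14, 3.71-fold in WTAP and 5.64-fold in SETD2 #1, against 6.55-fold in the control, and 2.94-fold in SETD2 #2 against 2.51-fold in the second control. The 3′-most peak 4 (chr2:227600559-227656956, 511 bases in 2 blocks, 5.05-fold, log10 p −26.9) was absent from METTL14 and WTAP. Of the 11458 control peaks with a p-value as low as this one, METTL14 lacked 291 and WTAP lacked 257. It was 1.83-fold in METTL3 and 3.79-fold in SETD2 #1, and 2.3-fold in SETD2 #2 against 2-fold in the second control.

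**Figure D5:**
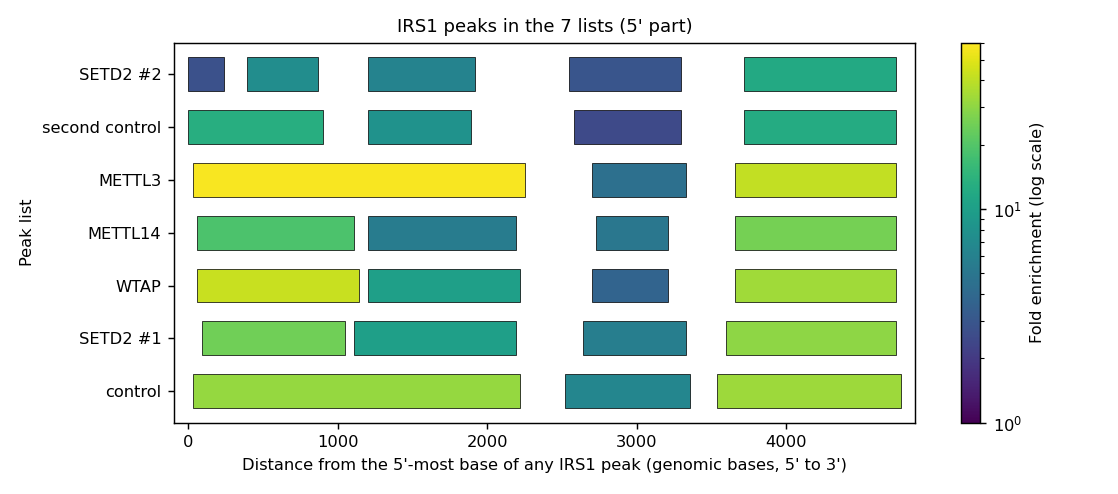
IRS1 peaks (boxes) in the 7 lists (rows), by distance in genomic bases from the 5′-most base of any IRS1 peak, coloured by fold enrichment on a log scale. The 3′-most peak lies outside the drawn range. Only METTL3 and the control hold the 5′ region in 1 peak, of 2219 and 2189 bases.

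IRS2, the other adaptor, had no row in any of the 7 tables. A missing peak does not show that the mRNA lacks m6A or that it is not expressed, because the tables list only stretches called as enriched.

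Across lists, the genes most alike in number of peaks were IGF2R and GPC3, whose counts differed by 3 in sum over the 7 lists. INSR was nearest to GPC3, with a summed difference of 7, IGF2 and IRS1 differed by 8, and so did IRS1 and INSR. IGF1R stood apart, with a summed difference of 17 to IGF2, its nearest gene. IRS2 and IGFBP1 differed by 8.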

How the data were processed

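m6A-seq peaks of HepG2 cells under 7 shRNA conditions were used. FastQC 0.11.5 and TopHat2 2.1.1, with the build hg19, are named in the submitters' processing notes. exomePeak lists pooling replicates 1 to 3 were deposited by the authors, per the labels; the caller's version and the annotation it used were not given in the sources used here. Per the file headers, the deposited tables give a p-value per peak, log10 p and log10 FDR (scores without a fixed range), and fold enrichment, the ratio of IP to input on a linear scale.

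Repeated rows (11 to 21 per list) were counted once. Peaks were compared by their blocks on the same strand with a minimum of 1 shared base, using Python 3.11.15, numpy 2.4.6, pandas 2.3.3 and bedtools 2.31.1, with figures by matplotlib 3.10.9. Where several peaks overlapped 1 control peak, the one sharing the most bases was its match. Overlap counting was tested by removing a random part of the control peaks and searching the full control list in the rest. That check did not cover shifted, split or narrowed peaks. Each list is 1 value per condition, so no test was made, and read depth, hence precision, is unknown.

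The genes and comparisons were chosen with earlier results of these data known. Described peaks were the one with the lowest p of each gene in each control, each control peak absent from a knockdown list of its set and each knockdown peak absent from its control; others were added after their values were seen. A list of further pathway genes, cell type markers, sequence motifs and transcript regions were not analysed here, since 0 rows of the gene table had identifiers of the files' kind and no hg19 genome was used. Of the 200 peaks, 28 overlapped the GRCh38 span of their gene, so no GRCh38 coordinates were used. Alternatives tried were an overlap of 50% of both peaks, whole spans, the shorter deposited lists, an FDR of at most 1e-05, a fold of at least 3 and repeated rows kept.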

Additional observations from a re-analysis of the deposited data

How the results depend on the processing

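No paired analysis was possible because each deposited list pools replicates 1 to 3, and for the same reason no replicate could be left out. Over 6 alternatives, 57 recomputed counts stayed within 1.5 times the value reported and 29 moved further. None moved with whole spans or with repeated rows kept, which gave 12 and 19 of the 57. With an overlap of 50% of both peaks, 11 counts moved and 1 did not. With the FDR limit 6 moved and 6 did not, and the fold limit gave the same numbers. With the shorter lists 6 moved and 13 did not. These are counts, and the filters also changed how many peaks were counted, so shares are given with those of all peaks. The cause was not tested, except that a stricter overlap leaves fewer matches and a filter fewer peaks by construction.

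When both peaks had to share 50% of their bases, control peaks absent became 10 of 30 for METTL3 (beside 35.1% of all), 8 for WTAP (43.8%), 8 for SETD2 #1 (38.9%) and 11 for the second control (45.2%), and second control peaks absent from SETD2 #2 became 6 of 30 (31.9%). Peaks without a control counterpart became 7 in METTL3 (25.9%, beside 27.9% of all), 6 in METTL14 (25%, beside 35.9%), 6 in WTAP (21.4%, beside 35.6%), 5 in SETD2 #1 (18.5%, beside 28.1%), 10 in SETD2 #2 (29.4%, beside 27.2%) and 11 in the second control (36.7%, beside 40.8%).

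With the shorter lists, METTL14 held 15 peaks of these genes, or 62.5% of those in its full list, beside 69.3% of all its peaks. It lacked 11 of 25 control peaks (44%, beside 29.3%), and METTL3 lacked 7 of 25 (28%, beside 20.4%), both above the share of all peaks. SETD2 #2 lacked 1 of 21 second control peaks (4.76%, beside 22.2%) and the second control 6 of 25 control peaks (24%, beside 29.6%). Peaks without a counterpart became 0 of 19 in METTL3 (beside 10.5%), 1 of 22 in SETD2 #1 (beside 6.82%) and 0 of 21 in the second control (beside 13.9%). In SETD2 #2 they were 4 of 24 (16.7%, beside 11.7%).

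With an FDR of at most 1e-05, METTL14 lacked 5 of 24 control peaks (20.8%, beside 29.8%) and SETD2 #2 lacked 0 of 24 second control peaks (beside 21.4%). METTL3 lacked 5 of 24 control peaks (20.8%, beside 20.4%). Peaks without a counterpart were 1 of 21 in METTL3 (beside 10.2%), 2 of 24 in WTAP (beside 13.1%), 1 of 22 in SETD2 #1 (beside 6.17%) and 2 of 24 in the second control (beside 14.4%). In SETD2 #2 they were 5 of 30 (16.7%, beside 9.86%).

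With a fold of at least 3, METTL3 lacked 7 of 22 control peaks (31.8%, beside 24.3%) and METTL14 also 7 of 22 (31.8%, beside 30.6%). SETD2 #2 lacked 5 of 18 second control peaks (27.8%, beside 29.1%) and the second control 7 of 22 control peaks (31.8%, beside 36.8%). Peaks without a counterpart were 0 of 15 in METTL3 (beside 13.7%), 2 of 21 in WTAP (beside 16.3%), 3 of 16 in SETD2 #2 (beside 19.1%) and 3 of 18 in the second control (beside 14.7%).

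Unknown depth limits what a missing peak shows.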
